A study of Mus musculus with 2 samples.

Results

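The cells described here are CD8 T cells of the library that is labelled liver, from a single-cell RNA sequencing experiment on mice with liver metastases. Barcodes were chosen by their transcripts. A barcode was kept with at least 2 UMIs (unique molecular identifiers, 1 per captured transcript) of Cd3d, Cd3e and Cd3g together, at least 2 of Cd8a and Cd8b1 together, 0 of Cd4 and at most 1 of Cd79a and Cd79b together. These 8 genes selected the cells, so their levels are given as a description only. The gate held 731 of 9591 barcodes of this library, and 695 of them had a group, out of 14421 barcodes in both libraries of the series.

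Female BALB/c mice (genotype BALB/cAnNCrl in the labels, 7 to 8 weeks old) carried liver metastases of 4T1-Luc, a luciferase-expressing mouse mammary carcinoma line that was seeded through the spleen in a hemisplenectomy procedure. Hepatic arterial infusion delivered either the vehicle (5% dextrose) or CBL0137 at 1 of 2 dose levels, called low dose and high dose. CBL0137 is a curaxin that binds DNA and traps the histone chaperone FACT on chromatin, and neither label nor methods state the doses of this experiment in numbers. Cells of 2 mice were pooled per group 5 days after treatment, so each group was 1 sample without a replicate, and no test between groups was possible. All 3 groups bore tumors, had lost part of the spleen and had undergone the infusion. The labels describe leukocytes from a Lymphoprep gradient, while the methods of the study describe beads for CD11b, a myeloid surface protein. The names of the deposited files give the tissues the other way round from the labels, and the CD8 T cells of this library held 0 UMIs of Alb and Ttr, which hepatocytes express, and of Clec4f, which marks Kupffer cells. The CD8 T cells of the library labelled spleen held 5, 3 and 21 UMIs of Alb in the vehicle, low dose and high dose groups and 0, 0 and 186 of Clec4f. These transcripts go with the file names, which call the library described here spleen, and against its label. The tissue the cells came from is therefore unsettled, and the label is kept below only as a name.

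CD8 T cells recognize peptides on MHC class I through the T cell receptor and the CD8 coreceptor, a dimer of the products of Cd8a and Cd8b1. Naive CD8 T cells recirculate through spleen and lymph nodes with the homing receptor Ccr7, and depend on interleukin-7 and on the transcription factors Tcf7 and Lef1. After activation they divide, express cytotoxic granule genes such as Gzmb and chemokines such as Ccl5, and leave memory cells that express Eomes, Il2rb and Ly6c2.

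The groups of this pooled library were told apart by hashtags, which are oligonucleotides carried by an antibody to common mouse surface proteins (clone M1/42). Their sequences are shown because each group assignment rests on them, and the sample labels state which hashtag belongs to which group. They are 15 bases long, are written 5′ to 3′, and differ from each other at 10 or 11 of the aligned positions.
A0301, vehicle: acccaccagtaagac
A0305, low dose: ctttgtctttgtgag
A0310, high dose: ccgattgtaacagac
A barcode took the group of its most abundant hashtag when that had at least 10 UMIs and at least 3 times the next. This gave 181 vehicle, 251 low dose and 263 high dose CD8 T cells. Where 3 values follow each other below, they are for the vehicle, the low dose and the high dose in that order. The leading hashtag had a median of 1240, 1085 and 556 UMIs in these cells and never fewer than 186, 166 and 70. The other 36 barcodes of the gate had a second hashtag within 3 times of the first and were left out. No CD8 barcode of this library occurred in the library labelled spleen, although the libraries had 15 barcodes in common.

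The given markers of CD8 T cells were present, 1 of them without being specific to this lineage. Nkg7, a granule membrane protein of cytotoxic lymphocytes that the gate did not use, had 628, 584 and 634 UMIs per 1000000 UMIs (CPM). In CD4 T cells of the same library (at least 2 Cd3 UMIs, at least 1 Cd4 UMI, no Cd8a, Cd8b1 or Foxp3 UMI) its levels were 23.8, 23.4 and 53.2 CPM. Ctsw, a cathepsin of cytotoxic cells, had 192, 146 and 166 CPM against 15.3, 11.3 and 14.6 CPM in CD4 T cells. Dapl1, a gene of resting T cells, had 281, 260.1 and 452 CPM in CD8 and 172, 170.2 and 260.3 CPM in CD4 T cells. The median cell of the gate had 13 UMIs of the Cd3 genes and 8 of Cd8a and Cd8b1. At the edges of the gate, 43 cells had exactly 2 UMIs of Cd8a and Cd8b1, and 56 barcodes just outside had 1. The Cd3 limit had 8 cells just inside and 7 barcodes just outside, and the Cd79 limit had 59 and 7. A further 8 barcodes missed the gate by 1 Cd4 UMI.

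CD8 T cells were sequenced to similar depth in the 3 groups. Their summed UMIs came to 1219663, 1510981 and 1831923. The median cell had 5705, 5592 and 6506 UMIs and 1796, 1799 and 1937 genes, with 3.33%, 3.67% and 3.47% mitochondrial UMIs. Cd8b1, which chose the cells, had 967, 942 and 1016 CPM, and Cd8a had 367, 350.1 and 389.8 CPM.

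A few barcodes also carried very many transcripts of neutrophils or red blood cells, unequally over the groups. The median CD8 barcode had 6 UMIs of the neutrophil genes S100a8 and S100a9 in each group. Over 50 were found in 11 vehicle, 5 low dose and 2 high dose barcodes, which held 95.2%, 94.1% and 87.1% of all S100a8 and S100a9 UMIs of their group. A single low dose barcode had 4521 hemoglobin UMIs, 74.1% of the hemoglobin UMIs of its group. Barcodes with over 50 UMIs of S100a8 and S100a9 or over 50 of Hba-a1, Hba-a2, Hbb-bs and Hbb-bt are called outlying here. There were 14, 7 and 2 of them, and without them 167, 244 and 261 cells remained.

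**Figure D1:**
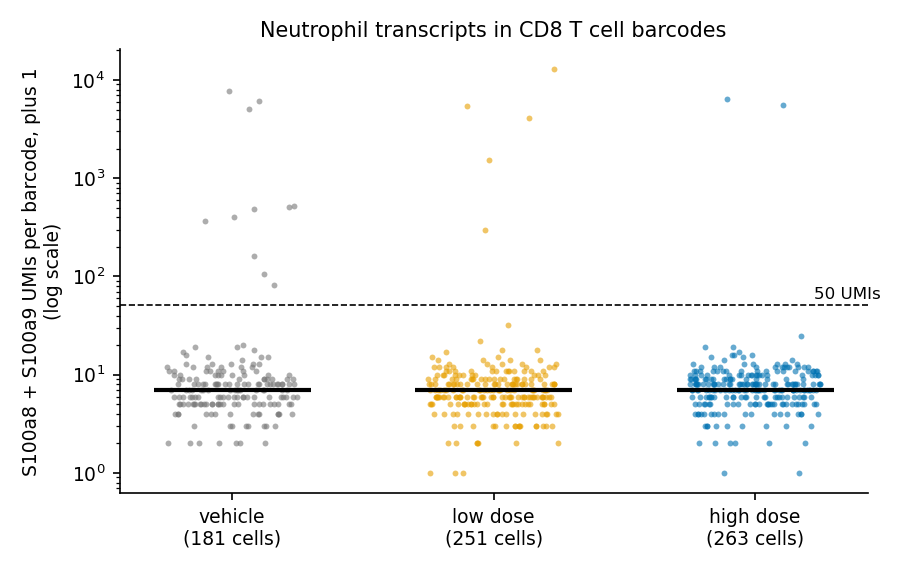
Each point is 1 CD8 T cell barcode of the library labelled liver, with its S100a8 and S100a9 UMIs plus 1 on a log scale, the median as a black line and 50 UMIs as a dashed line. The medians are equal (6 UMIs), and 11 vehicle, 5 low dose and 2 high dose barcodes lie above the dashed line.

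Other cell types showed to unequal extents. Of the 20 neutrophil genes none was at 0, the most abundant was S100a9, and together they reached 22935, 22403 and 9444 CPM. Without outlying barcodes these sums were 1952, 1933 and 1891 CPM. The 8 erythroid genes, led by Hbb-bs and none at 0, summed to 441, 4072 and 71.0 CPM, and to 86.7, 106 and 71.2 CPM without outlying barcodes. The 14 B cell genes, led by Ighm and none at 0 throughout, summed to 486, 201 and 332 CPM, with 6, 3 and 1 UMIs of Cd79a. The 8 dendritic cell genes, led by Cst3 and with Flt3, Siglech and Clec9a at 0, summed to 349, 144 and 153 CPM. The 11 macrophage and monocyte genes, led by Ly6c2, which CD8 memory cells also express, and with Clec4f at 0, summed to 368, 225 and 277 CPM. Of the 10 natural killer cell genes, which Txk led and several of which T cells or neutrophils express, Klra4 and Klra8 were at 0 and Ncr1 had 1, 1 and 2 UMIs, and the list summed to 815, 688 and 529 CPM. The 8 CD4 and regulatory T cell genes, led by Izumo1r, with Cd4 at 0 by the rule and Foxp3 at 1 UMI per group, summed to 32.8, 23.8 and 40.9 CPM. The 8 γδ T cell genes, led by Trdc (5, 9 and 31 UMIs), summed to 20.5, 9.27 and 21.3 CPM with 3 of them at 0. Plasma cell genes (Xbp1 leading), platelet genes (Pf4) and 4T1 or epithelial genes (Spp1) summed to at most 36.1, 11.9 and 8.20 CPM in any group, and 6 of 7 hepatocyte genes were at 0. Alternatives given below left out the outlying barcodes or called doublets, used a stricter gate, or computed CPM without the neutrophil, B cell and erythroid genes. The part of these transcripts in the results was otherwise not tested.

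The first comparison asks whether CD8 T cells made up a different share of the cells under CBL0137. They made up a larger share at the high dose than under the vehicle, and CD4 T cells did too. The CD8 share of all barcodes with a group was 5.39% under the vehicle (181 of 3360, exact Clopper-Pearson 95% interval 4.65 to 6.20), 7.37% at the low dose (251 of 3408, 6.51 to 8.29) and 12.3% at the high dose (263 of 2143, 10.9 to 13.7). The high dose exceeded the vehicle by 6.89 percentage points (5.30 to 8.53), and the low dose by 1.98 (0.795 to 3.17). CD4 T cells were 5.95%, 8.07% and 17.5% of the same barcodes. CD8 cells were 47.5%, 47.7% and 41.2% of CD8 and CD4 T cells, and the high dose minus vehicle difference of -6.35 points had limits of -12.8 and 0.0958. All intervals given here reflect counting error and not the spread between mice, and a share of barcodes does not give the number of cells in the organ. With a stricter gate, which required both Cd8a and Cd8b1, no Cd79 UMI and at most 5 UMIs of S100a8 and S100a9, 212 cells remained, the high dose difference was 1.51 points (0.639 to 2.45) and the low dose difference 0.679 points, with limits of -0.024 and 1.39 on either side of 0. The median cell of each group, with 6 UMIs of S100a8 and S100a9, failed the last condition, while 59 cells of the gate had a Cd79 UMI. The stricter gate thus also left out cells with ordinary counts of these neutrophil transcripts. In the library labelled spleen, the same gate gave 30 of 820, 54 of 1318 and 112 of 2345 barcodes, or 3.66%, 4.10% and 4.78%, and the limits of both differences lay on either side of 0.

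**Figure D2:**
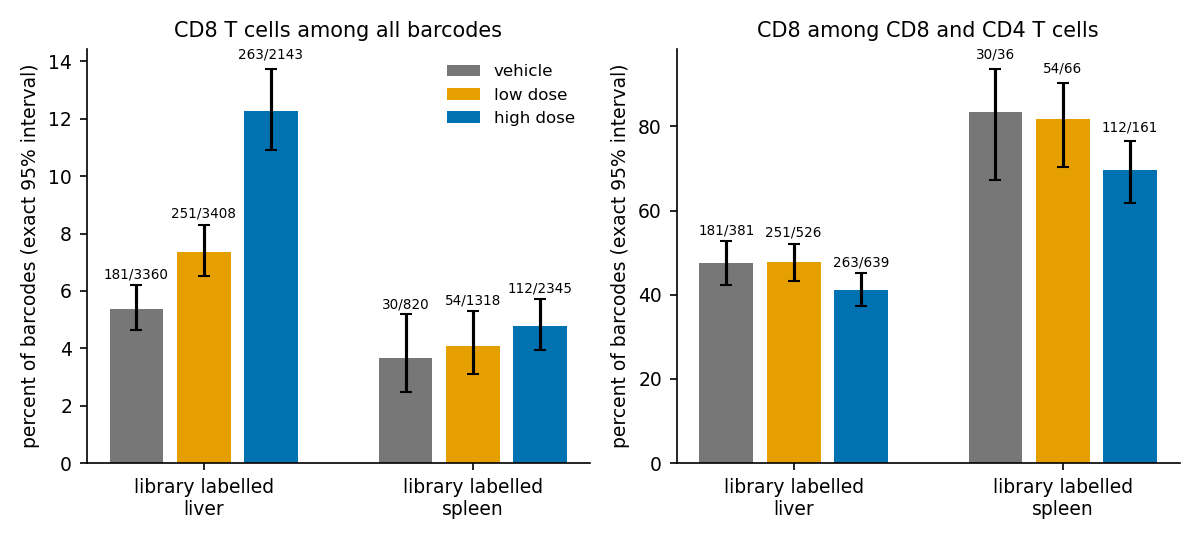
Bars give CD8 T cells as percent of all barcodes with a group (left) and of CD8 and CD4 T cells (right), by library and group, with exact 95% intervals and the counts above. In the library labelled liver the share of all barcodes was 5.39%, 7.37% and 12.3%, while the share among T cells was 47.5%, 47.7% and 41.2%.

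Gene levels were then compared as the log2 ratio of CPM, with a conditional 95% interval from the counts. Of 3620 genes that had 100 UMIs or more in the vehicle and high dose cells together, 70 (1.93%) were over 1.5-fold higher and 137 (3.78%) over 1.5-fold lower at the high dose, and the median log2 ratio was -0.03. At the low dose, 51 (1.54%) of 3309 genes were higher and 93 (2.81%) lower. The low and the high dose share the vehicle cells. Which direction was more frequent depended on the scaling and on the cells. The stricter gate gave 16 higher and 8 lower genes at the high dose. CD8 T cells of the library labelled spleen had 191 higher and 99 lower of 1801 genes. With TMM factors 114 genes were higher and 106 lower at the high dose and 72 and 68 at the low dose, and with DESeq2 size factors 101 and 117, and 63 and 70. Without the outlying barcodes, 57 (1.69%) of 3374 genes were higher and 70 (2.07%) lower at the high dose, and 53 (1.79%) of 2964 higher and 54 (1.82%) lower at the low dose. Genes with 100 UMIs or more are called measured below.

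Of the genes of naive and quiescent T cells, a few were higher in the dose groups and none was past 1.5-fold lower. All 20 genes of this list were measured, and 2 were over 1.5-fold higher and 0 lower at the high dose, with a median log2 ratio of 0.13. Of all measured genes 1.93% were higher and 3.78% lower at that dose. Lef1 had 430.4, 460.0 and 477 CPM, a high dose ratio of 0.15 (-0.01 to 0.31), and Tcf7 had 324, 388 and 322 CPM, a ratio of -0.01 (-0.20 to 0.18). The groups lay close together in both genes, and both high dose intervals held 0. Btg1, an antiproliferative gene and the most abundant of the list, had 926, 1068 and 919 CPM.

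Most cells of each group carried Lef1 transcripts, with a UMI in 160, 221 and 234 cells. To compare cells at 1 depth, each cell was thinned to 1000 UMIs at random, which left out 0, 2 and 2 cells. Lef1 was then found in 37.6%, 40.6% and 38.3% of CD8 T cells (median depth before thinning 5705, 5593 and 6527 UMIs), and in 1.44%, 0.233% and 0.562% of B cells of the same groups (3646, 3592 and 3939 UMIs), which served as background. Thinned cells with neither a Ccl5 nor a Ly6c2 UMI made up 79.6%, 88.4% and 79.7% of all.

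Dapl1, a member of the naive list past 1.5-fold at the high dose, lies on chromosome 2 from 59484653 to 59505020 on the plus strand (GRCm38). It had 343, 393 and 828 UMIs in 82, 124 and 147 cells. The high dose level was higher than the vehicle level, with a log2 ratio of 0.68 (0.50 to 0.87), and the low dose ratio was -0.11 (-0.33 to 0.10). The high dose ratio was 0.64 without the outlying barcodes, 0.53 as a mean over cells and 0.13 with the stricter gate (102 vehicle and 157 high dose UMIs), the last 2 under 1.5-fold. The thinned share of cells with a Dapl1 UMI was 19.9%, 20.5% and 26.1%, against 0%, 0.233% and 0% of B cells, and the high dose difference was 6.16 points (-2.22 to 14.2). The difference was therefore past 1.5-fold in the summed level, while the counting interval of the difference in thinned shares held 0.

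Igfbp4, a secreted binding protein of insulin-like growth factors that naive T cells express, had 200, 386 and 456 UMIs. It was higher at both doses, with a log2 ratio of 0.64 at the low and 0.60 at the high dose, and the high dose value was 0.46 without outlying barcodes and 0.13 with the stricter gate, both under 1.5-fold. Ccr7, the lymph node homing receptor, had 193, 308 and 243 CPM. It was past 1.5-fold at the low dose, 0.68 (0.45 to 0.91), and not at the high dose, 0.34 (0.11 to 0.57). Bach2, a repressor that restrains T cell differentiation, had 50.8, 84.1 and 50.2 CPM, and the gut homing receptor Ccr9 had 41.0, 64.2 and 53.5 CPM. The low dose group was the highest of the 3 in Ccr7, Bach2 and Ccr9. These genes and Igfbp4 were the 4 of 20 naive list genes past 1.5-fold higher at the low dose, where 0 were lower. Of all measured genes 1.54% were higher and 2.81% lower at that dose. Without outlying barcodes 1 of the 4 (Bach2, 0.66) was still past 1.5-fold, while Ccr7 was 0.58, Igfbp4 0.56 and Ccr9 0.55.

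Memory genes differed in both directions at the high dose. Of the 12 measured of 16 memory genes, 4 were over 1.5-fold higher (Eomes, Ly6a, Il18r1 and Xcl1) and 2 lower (S100a4 and Crip1). Of all measured genes 1.93% were higher and 3.78% lower. The median of the list was 0.11, or -0.085 without outlying barcodes. Without those barcodes 4 were higher (Ly6c2 in place of Il18r1) and 3 lower (S100a6 added), against 1.69% and 2.07% of all measured genes. Eomes, a T-box factor of memory and killer cells, had 47, 51 and 121 UMIs in 36, 37 and 74 cells, a high dose log2 ratio of 0.78 (0.28 to 1.30). Ly6a, which encodes the surface protein Sca-1, had 83, 76 and 208 UMIs in 42, 43 and 94 cells, a ratio of 0.74 (0.36 to 1.12). Il18r1, a chain of the interleukin-18 receptor, had 54, 68 and 128 UMIs in 42, 49 and 86 cells, a ratio of 0.66 (0.19 to 1.14). The low dose ratios were -0.19 for Eomes, -0.44 for Ly6a and 0.02 for Il18r1, so that the high dose group was the highest in each of them with all cells. Without the outlying barcodes, the high dose ratios were 0.62 for Eomes, 0.62 for Ly6a and 0.52 for Il18r1, the last under 1.5-fold. With the stricter gate Eomes was 0.88, Il18r1 0.51 and Ly6a, from 33 vehicle and 38 high dose UMIs, -0.28, and Ly6a was -0.36 in the library labelled spleen, so its direction was not kept. At the low dose, 0 of 10 measured memory genes were higher and 4 lower (Ccl5, S100a4, Crip1 and Ly6c2), against 1.54% and 2.81% of all measured genes.

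Ly6c2, a surface protein of memory CD8 T cells and of monocytes, lies on chromosome 15 from 75108158 to 75111970 on the minus strand (GRCm38). It had 164, 112 and 321 UMIs in 66, 61 and 139 cells. The low dose level was lower than the vehicle level, with a log2 ratio of -0.86 (-1.22 to -0.50), and the high dose ratio was 0.38 (0.11 to 0.66) with all cells and 0.60 (0.29 to 0.92) without the outlying barcodes. The low dose group was thus the lowest and the high dose group the highest. After thinning, 11.05%, 7.23% and 14.6% of cells had a Ly6c2 UMI, against 1.03%, 0.233% and 1.69% of B cells, and the high dose difference was 3.51 points (-3.32 to 9.92). Reads of Ly6c2 and its close relative Ly6c1 can be hard to tell apart.

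Ccl5, a chemokine of memory and effector CD8 T cells and the most abundant gene of the memory list, had 826, 203 and 850.5 CPM. Its UMIs came from 32, 28 and 55 cells. The thinned share of cells with Ccl5 was 12.7%, 5.22% and 9.96%, against 0.619%, 0.932% and 0.562% of B cells. The low dose group was lowest in both the level and the thinned share. The high dose ratio of Ccl5 was 0.04 (-0.07 to 0.16) but moved with the setting, to -0.17 without outlying barcodes, 0.94 as a mean over cells and 1.86 with the stricter gate, so vehicle and high dose cannot be called alike in this gene. Xcl1 and Ccl4, chemokines that activated CD8 T cells secrete, rested on single barcodes. Xcl1 had 6, 32 and 136 UMIs, and the top barcode of each group held 4, 32 and 130 of these. Ccl4 had 21, 9 and 151 UMIs, of which the top barcodes held 9, 3 and 139. Without the top barcode of each group, the high dose log2 ratio was 1.00 for Xcl1 and -0.59 for Ccl4. Neither ratio therefore describes the high dose cells at large.

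Most cytotoxic effector genes had fewer than 100 UMIs, while Nkg7 was abundant in all groups. Of 19 genes, 6 were measured, with 1 higher (Ccl4) and 1 lower (Gzma) at the high dose and a median of -0.10, and with 2 lower without outlying barcodes. Of all measured genes 1.93% were higher and 3.78% lower at the high dose. Gzmb, a granule protease, was found in 8, 8 and 12 cells with 65, 8 and 32 UMIs. Gzma, another granule protease, was found in 6, 5 and 6 cells, and 100 of its 110 vehicle UMIs lay in 1 barcode, so that its high dose ratio of -1.28 was 1.45 without the top barcodes. After thinning, 1.66%, 0.803% and 1.53% of cells had a Gzmb UMI, against 0%, 0.233% and 0% of B cells. Prf1, which encodes perforin, had 79.5, 70.8 and 55.7 CPM, a high dose ratio of -0.51 (-0.93 to -0.10). Klrd1, which encodes the CD94 receptor chain, had 132, 116 and 181 CPM, a ratio of 0.45 (0.18 to 0.73). Nkg7, the most abundant of the list, had a ratio of 0.01 (-0.12 to 0.15).

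Few activation and exhaustion genes reached 100 UMIs. Pdcd1, which encodes PD-1, had 4, 2 and 3 UMIs, and Ifng, the gene of interferon-γ, had 1, 1 and 12. Tox, an exhaustion factor and the 1 measured of 11 checkpoint and exhaustion genes, had 50.8, 24.5 and 36.6 CPM, a ratio of -0.47, or -0.59 without outlying barcodes, which is past 1.5-fold. Cd160, a receptor of that list with fewer than 100 UMIs, had 20, 9 and 77 UMIs in 15, 9 and 38 cells. Of 14 activation genes, 2 were measured, with 0 higher and 0 lower. Cd69, an early activation receptor and the most abundant of them, had 130, 136 and 175 UMIs.

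**Figure D3:**
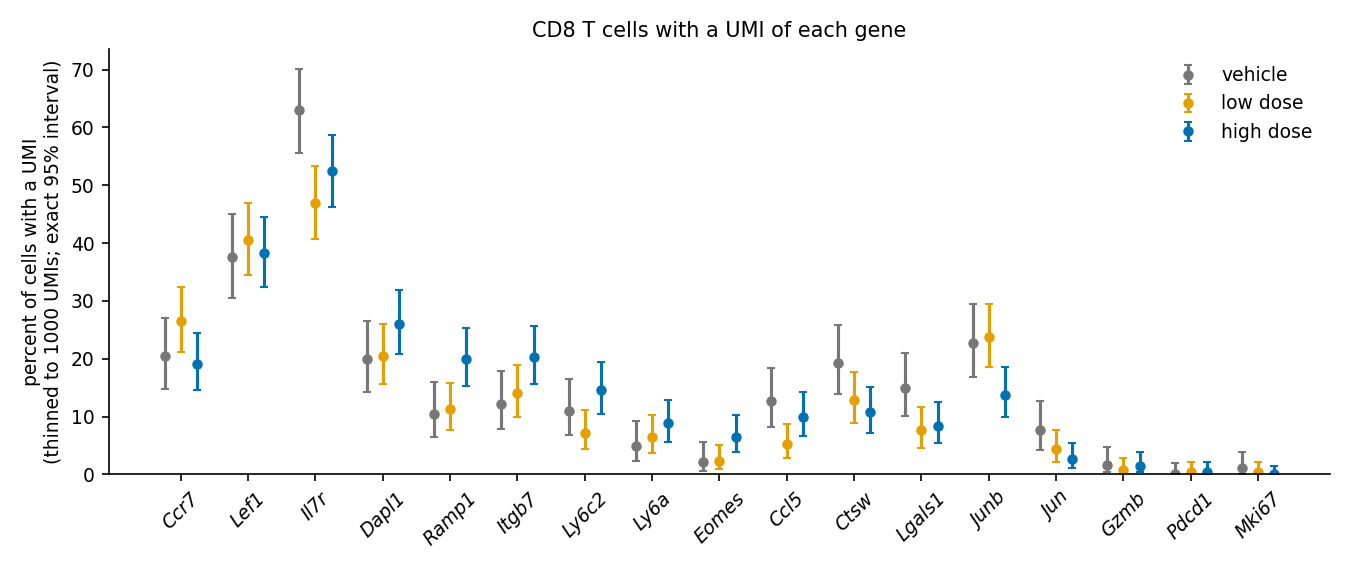
Points give the percent of CD8 T cells of each group with at least 1 UMI of the gene on the x axis, after thinning to 1000 UMIs per cell, with exact 95% intervals. Ramp1 was found in 19.9% of high dose and 10.5% of vehicle cells, Itgb7 in 20.3% and 12.2%, and Jun in 2.68% and 7.73%.

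By the distance from 0 of the nearer bound of the 95% counting interval, 12 genes were named as higher at the high dose, among measured genes that were also above the vehicle at the low dose and were under 5 times as abundant in the other barcodes of the library. They were Xcl1, Adgrg5, Ramp1, Trbc1, Gm47283, Tbl1x, 2410006H16Rik, Gpr171, Trnp1, Ifi27l2a, Cdk6 and Ppan. Ramp1, a partner of the receptor for the neuropeptide CGRP, lies on chromosome 1 from 91179822 to 91225196 on the plus strand (GRCm38). It had 124, 211 and 337 UMIs in 80, 126 and 172 cells. Its log2 ratio was 0.46 (0.13 to 0.79) at the low and 0.86 (0.55 to 1.16) at the high dose. The thinned share of cells with Ramp1 was 10.5%, 11.2% and 19.9%, against 0%, 0% and 0% of B cells, and the high dose difference was 9.43 points (2.28 to 16.2). The vehicle and low dose groups were close in that share and the high dose group stood above both. With the stricter gate the high dose ratio of Ramp1 was 0.53, under 1.5-fold.

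Adgrg5, an adhesion G protein-coupled receptor, had 23, 43 and 82 UMIs in 21, 34 and 65 cells, a high dose log2 ratio of 1.25 (0.57 to 1.98). Gpr171, a G protein-coupled receptor of lymphocytes, had 24.6, 53.6 and 50.8 CPM, with ratios of 1.12 at the low and 1.05 at the high dose. Tbl1x, a subunit of nuclear corepressor complexes, had 41.0, 70.2 and 77.5 CPM, with ratios of 0.78 and 0.92. Ppan, a factor of ribosome assembly, had 27.9, 50.3 and 53.5 CPM (0.85 and 0.94), and Cdk6, a kinase of the early cell cycle, had 26.2, 27.8 and 51.3 CPM (0.08 and 0.97). Ppan, Tbl1x and Gpr171 were past 1.5-fold at both doses and Cdk6 at the high dose alone. Trbc1, a constant region of the T cell receptor beta chain, had 548, 609.5 and 824 CPM, a high dose ratio of 0.59 (0.46 to 0.72), or 0.46 without outlying barcodes, 0.37 as a mean over cells and 0.057 with the stricter gate, all under 1.5-fold. It was found in 121, 166 and 180 cells, and its reads can be hard to tell from those of Trbc2. Trnp1, 2410006H16Rik and Gm47283 had high dose ratios of 1.09, 0.66 and 0.65, and 2410006H16Rik was 0.55 without outlying barcodes and 0.58 in cells without a Ccl5 UMI, both under 1.5-fold. Gm47283 is annotated on chromosome Y, although the mice were female, and its reads may be shared with related copies.

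Named as lower by the same rule were Hist1h1b, Pclaf, S100a4, Rrm2, Birc5, Mki67, Lgals1, Top2a, Hist1h2ap, Crip1, Hmgb2 and Cst3, with high dose log2 ratios from -3.36 (Hist1h1b) to -1.21 (Cst3). Without outlying barcodes Birc5 was -1.12 against -2.16 with all cells, Rrm2 -1.48 against -2.26 and Hmgb2 -0.95 against -1.42. Hmgb2 was 0.075 with the stricter gate. Without the top barcode of each group, Hist1h1b (-5.37), Hist1h2ap (-4.02), Top2a (-3.23) and Rrm2 (-3.05) lay farther from 0, and Hmgb2 (-1.21) nearer. The top barcodes held 84%, 82.1%, 72.3% and 68% of the high dose UMIs of Hist1h1b, Hist1h2ap, Top2a and Rrm2. Without them 4, 5, 13 and 8 high dose UMIs remained, so these larger ratios rest on few UMIs. Of these 12, Hist1h1b, Pclaf, Rrm2, Birc5, Mki67, Top2a, Hist1h2ap and Hmgb2 serve DNA replication, chromatin or division. Mki67 had 85, 22 and 29 UMIs in 9, 4 and 5 cells, and Top2a had 118, 24 and 47 UMIs in 13, 7 and 8 cells. Barcodes with at least 2 UMIs of Mki67 and Top2a numbered 6 of 181, 3 of 251 and 6 of 263, or 3.31%, 1.20% and 2.28%, and 5 barcodes held 87.7%, 89.1% and 90.8% of these UMIs. Of the 6 vehicle barcodes 2 were outlying, of the 3 low dose barcodes 1, and of the 6 high dose barcodes 0. The 11 measured of 22 cell cycle genes had a median of -1.12, with 7 lower and 0 higher at the high dose, and without outlying barcodes 4 of 7 were lower with a median of -0.66. Of all measured genes 3.78% were lower at the high dose, or 2.07% without outlying barcodes. Tubb5, a tubulin and the most abundant of the list, had 429.6, 397 and 376 CPM. The ratios of Mki67 and Top2a thus describe few barcodes. Hmgb2, a chromatin protein, was found in 98, 145 and 131 cells, or 54.1%, 57.8% and 49.8%. The top vehicle barcode held 158 of the 691 vehicle UMIs of Hmgb2, and the high dose ratio of Hmgb2 was -0.67 as a mean over cells.

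Lgals1, which encodes galectin-1 and marks activated and memory T cells, lies on chromosome 15 from 78926725 to 78930465 on the plus strand (GRCm38). It had 523, 212 and 252 UMIs in 75, 52 and 69 cells. Both dose groups were lower than the vehicle, with log2 ratios of -1.61 (-1.85 to -1.38) and -1.64 (-1.86 to -1.42). Without outlying barcodes the ratios were -1.43 and -1.50, and without the top barcode of each group the high dose ratio was -1.51. Thinned cells with Lgals1 made up 14.9%, 7.63% and 8.43%, against 4.74%, 2.80% and 3.37% of B cells, and the high dose difference was -6.49 points (-13.3 to -0.166). With the stricter gate the high dose ratio was 0.012. It was -0.07 (-0.22 to 0.08) in CD8 T cells of the library labelled spleen and 1.09 (0.94 to 1.25) in CD4 T cells of this library. Crip1, a LIM domain protein of memory cells, had 467, 243 and 161 CPM and was found in 22.1%, 20.1% and 12.3% of thinned cells, but also in 26.6%, 28.0% and 29.5% of B cells. Its high dose ratio of -1.53 was -0.46 with the stricter gate and -0.45 in cells without a Ccl5 UMI. S100a4, a calcium-binding protein of memory cells, had 193, 100 and 56 UMIs from 12, 7 and 14 cells, and its high dose ratio of -2.37 was 2.32 with the stricter gate. Cst3, a protease inhibitor abundant in myeloid cells, had 377, 200 and 244 UMIs, a ratio of -1.21 that was -0.66 without the top barcodes, -0.25 with hashtag calls by HTODemux and -0.23 without doublets called by Scrublet, the last 2 under 1.5-fold.

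Immediate early genes, which stimuli and tissue handling switch on within minutes, included Jun and Klf6 among the genes lower at the high dose. Of 14 genes, 9 were measured, of which 2 (Jun and Klf6) were over 1.5-fold lower and 0 higher, with a median of -0.35 at the high and -0.01 at the low dose. Of all measured genes 3.78% were lower and 1.93% higher at the high dose. Jun, a subunit of the AP-1 transcription factor, had 93, 99 and 70 UMIs in 56, 65 and 52 cells, or 76.3, 65.5 and 38.2 CPM. The 95% interval of its high dose log2 ratio ran from -1.47 to -0.53, and the ratio was -0.93 without outlying barcodes. Thinned cells with a Jun UMI made up 7.73%, 4.42% and 2.68%, a high dose difference of -5.05 points (-10.2 to -0.638). In B cells, which express Jun too, the shares were 17.7%, 13.5% and 9.55%. The high dose group was lowest in Jun by each of these measures. With the stricter gate the high dose ratio of Jun in CD8 T cells kept its sign but lay outside the interval above.

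Klf6, a zinc finger factor, had 87.7, 77.4 and 52.4 CPM, a ratio of -0.74 (-1.16 to -0.33), or -0.49 without outlying barcodes and -0.21 with the stricter gate, both under 1.5-fold. Fos, the usual partner of Jun, had fewer than 100 UMIs, with 62, 33 and 17 UMIs in 27, 22 and 15 cells. Its ratio was -2.45 (-3.32 to -1.66), and -1.35 (-2.40 to -0.34) without outlying barcodes. Junb, another AP-1 subunit, had 243, 247 and 181 CPM, a ratio of -0.42 (-0.65 to -0.19), and Jund, the most abundant of the list, had 315, 367 and 216 CPM, a ratio of -0.54 (-0.75 to -0.34). The low dose group was above the vehicle in Junb and Jund and between the other groups in Jun, Klf6 and Fos.
The 250 bases before the start of Jun and of Klf6, the measured members past 1.5-fold, are shown 5′ to 3′ along each gene (RefSeq, GRCm38.p6). Capitals mark a match to TGACNTCA, the letters of the cyclic AMP response element with any base at the N, which AP-1 and ATF proteins bind. Jun is at chr4:95052223-95052472 on the minus strand and Klf6 at chr13:5861239-5861488 on the plus strand.
Jun: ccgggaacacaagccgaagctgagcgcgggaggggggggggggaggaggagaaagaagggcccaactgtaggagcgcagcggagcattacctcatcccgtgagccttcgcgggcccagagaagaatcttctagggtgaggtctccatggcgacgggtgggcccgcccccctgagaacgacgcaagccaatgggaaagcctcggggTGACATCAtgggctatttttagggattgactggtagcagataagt
Klf6: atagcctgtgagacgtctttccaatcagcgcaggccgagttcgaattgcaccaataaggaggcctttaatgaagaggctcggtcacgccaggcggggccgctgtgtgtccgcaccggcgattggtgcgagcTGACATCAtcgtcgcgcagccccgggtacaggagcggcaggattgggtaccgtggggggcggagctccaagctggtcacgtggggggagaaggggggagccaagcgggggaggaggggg
The match begins 45 bases before the start of Jun and 119 before that of Klf6. Searched on both strands, these letters were in 2460 of 32851 promoters (7.49%) and in 4 of the 12 immediate early promoters with a sequence, those of Btg2, Dusp1, Jun and Klf6. The letters were chosen after the sequences were seen, and a match is not a site of binding.

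The immediate early genes were also compared in the 851 CD4 T cells of the same library and in the 196 CD8 T cells of the library labelled spleen. Fos had 95, 53 and 49 UMIs in CD4 T cells, a high dose ratio of -1.94, and 133, 159 and 118 UMIs in CD8 cells of the other library, a ratio of -1.87. The Jun ratio was -1.22 in CD4 and -1.03 in the other CD8 cells. Junb was -0.53 in CD4 cells and -1.60 (-1.86 to -1.33) in the other CD8 cells, and Klf6 was 0.23 and -0.34. Dusp1, a phosphatase induced with these genes, had fewer than 100 UMIs in the CD8 T cells described here. Its ratio was -1.10 in these cells, -1.35 in CD4 cells and -1.47 in the other CD8 cells. Whether handling differed between the groups was not tested.

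**Figure D4:**
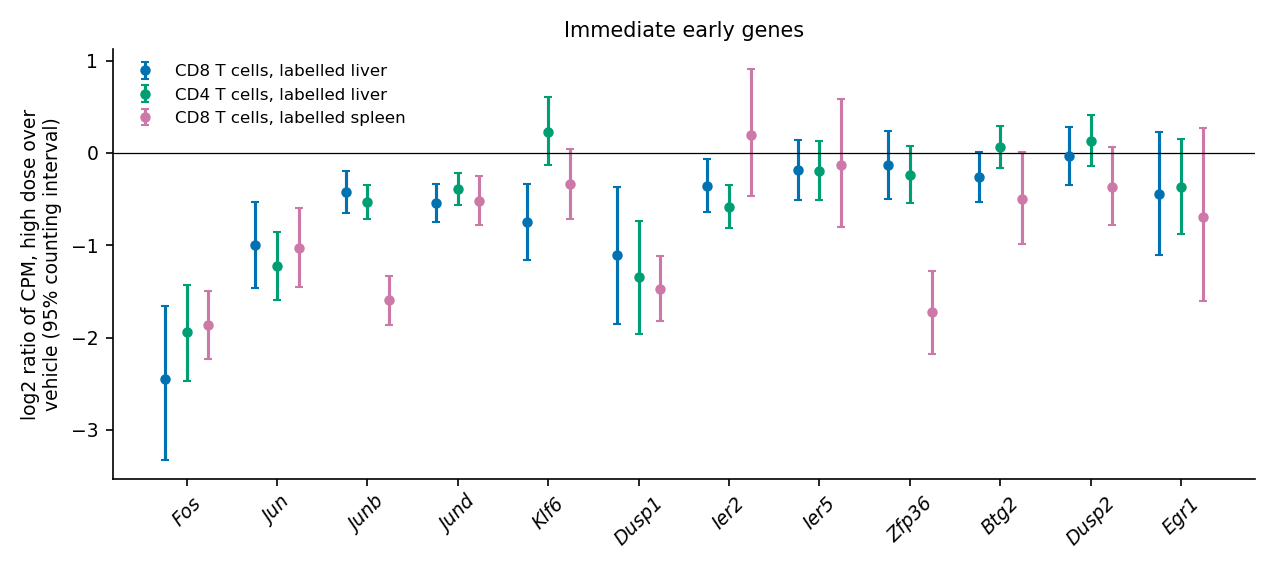
Points give the log2 ratio of CPM of 12 immediate early genes, high dose over vehicle, in CD8 and CD4 T cells of the library labelled liver and CD8 T cells of the library labelled spleen, with 95% counting intervals. Fos lies at -2.45, -1.94 and -1.87.

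The remaining lists had few members past 1.5-fold at the high dose, where 1.93% of all measured genes were higher and 3.78% lower. Of 20 measured T cell receptor signaling genes, with Trbc2 most abundant (989.6, 1073 and 1047 CPM), 1 (Trbc1) was past 1.5-fold higher at the high dose, and 0 without outlying barcodes. Of 16 measured interferon-stimulated genes out of 27, 1 (Ifi27l2a) was higher and 0 lower, with a median of 0.01. Ifi27l2a had 137, 152 and 214 CPM, a ratio of 0.64 (0.38 to 0.91), or 0.55 without outlying barcodes and -0.084 with the stricter gate. Ifi203, the most abundant of that list, had 352, 278 and 357 CPM. None of 14 MHC class I and antigen processing genes was past 1.5-fold (median 0.10), and H2-D1, a class I heavy chain, had 2513, 2699 and 2680.2 CPM.

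Among all measured genes 1.93% were past 1.5-fold higher and 3.78% lower at the high dose. Having 0 in a short list therefore lies near those shares. Metabolic and housekeeping lists had no member past 1.5-fold at the high dose. They were 22 oxidative phosphorylation genes (median -0.06, Atp5e leading with 702, 713 and 723 CPM) and 11 measured glycolysis genes (median -0.20, Gapdh with 579, 451 and 483 CPM). The same held for 9 measured heat shock genes (median -0.03, Hsp90ab1 with 1269, 1377 and 1396 CPM) and 6 measured NF-κB genes (median -0.02, Nfkbia with 144, 164 and 145 CPM). Without outlying barcodes 1 heat shock gene was lower, and the medians had the opposite sign for glycolysis (0.06), oxidative phosphorylation (0.03) and heat shock (0.05). The 80 measured ribosomal protein genes had a median of 0.12 and the 13 mitochondrially encoded genes one of 0.03, again with none past 1.5-fold. Without outlying barcodes the median of the mitochondrially encoded genes was -0.03.

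Of genes close to the action of CBL0137, 0 of 9 measured FACT and histone chaperone genes were past 1.5-fold at the high dose. As 1.93% of all measured genes were higher and 3.78% lower, 0 of 9 does not set this list apart. The FACT subunits Ssrp1 (91.8, 107 and 97.2 CPM) and Supt16 (104, 90.0 and 96.1 CPM) had high dose ratios of 0.08 (-0.27 to 0.44) and -0.12 (-0.45 to 0.22), and Npm1, the most abundant of the list, was 0.31, but -0.62 in CD8 T cells of the library labelled spleen. Zbp1, the Z-nucleic acid sensor, had 63, 77 and 103 UMIs, a ratio of 0.12 (-0.34 to 0.60). None of 4 measured genes of that list was past 1.5-fold, again near those shares, and Cflar, an inhibitor of caspase-8, led with 87.7, 82.7 and 77.0 CPM. Of 6 measured p53 list genes, 1 was higher at the high dose, Trp53inp1 with 0.59 (0.10 to 1.09). This ratio lay at the 1.5-fold limit and was 0.47 as a mean over cells, 0.36 with the stricter gate and -1.05 in the library labelled spleen. Trp53, the most abundant of the list, was 0.26.

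Of 17 measured trafficking genes, 1 (the integrin chain Itgb7) was past 1.5-fold, with 121, 154 and 187 CPM and a high dose ratio of 0.63 (0.34 to 0.91), or 0.46 without outlying barcodes, under 1.5-fold. Thinned cells with an Itgb7 UMI made up 12.2%, 14.1% and 20.3%, a high dose difference of 8.15 points (0.783 to 15.1), against 4.74%, 2.80% and 4.21% of B cells. Arhgdib, a regulator of small GTPases and the most abundant of that list, was -0.01.

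Of 5 measured survival genes, 1 (Bcl2) was past 1.5-fold lower at the low dose, against 2.81% of all measured genes, and their median was -0.16. Bcl2, an inhibitor of apoptosis and the most abundant of the list, had 456, 296 and 538 CPM, with log2 ratios of -0.62 (-0.81 to -0.44) at the low and 0.24 (0.09 to 0.39) at the high dose. Pim1, a survival kinase, was past 1.5-fold lower at the high dose (-0.72), and -0.19 without outlying barcodes. Il7r, the interleukin-7 receptor and the most abundant of 13 measured cytokine receptors, had 945, 739 and 1026 CPM, with a low dose ratio of -0.35 (-0.47 to -0.23). Its thinned share of cells was 63.0%, 47.0% and 52.5%, against 8.04%, 2.80% and 1.12% of B cells. In CD4 T cells Bcl2 had 478, 313 and 607 CPM and Il7r 983, 779 and 896 CPM, so the low dose group was lowest in both cell types. Among the cytokine receptors 1 gene, Il18r1, was past 1.5-fold at the high dose.

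**Figure D5:**
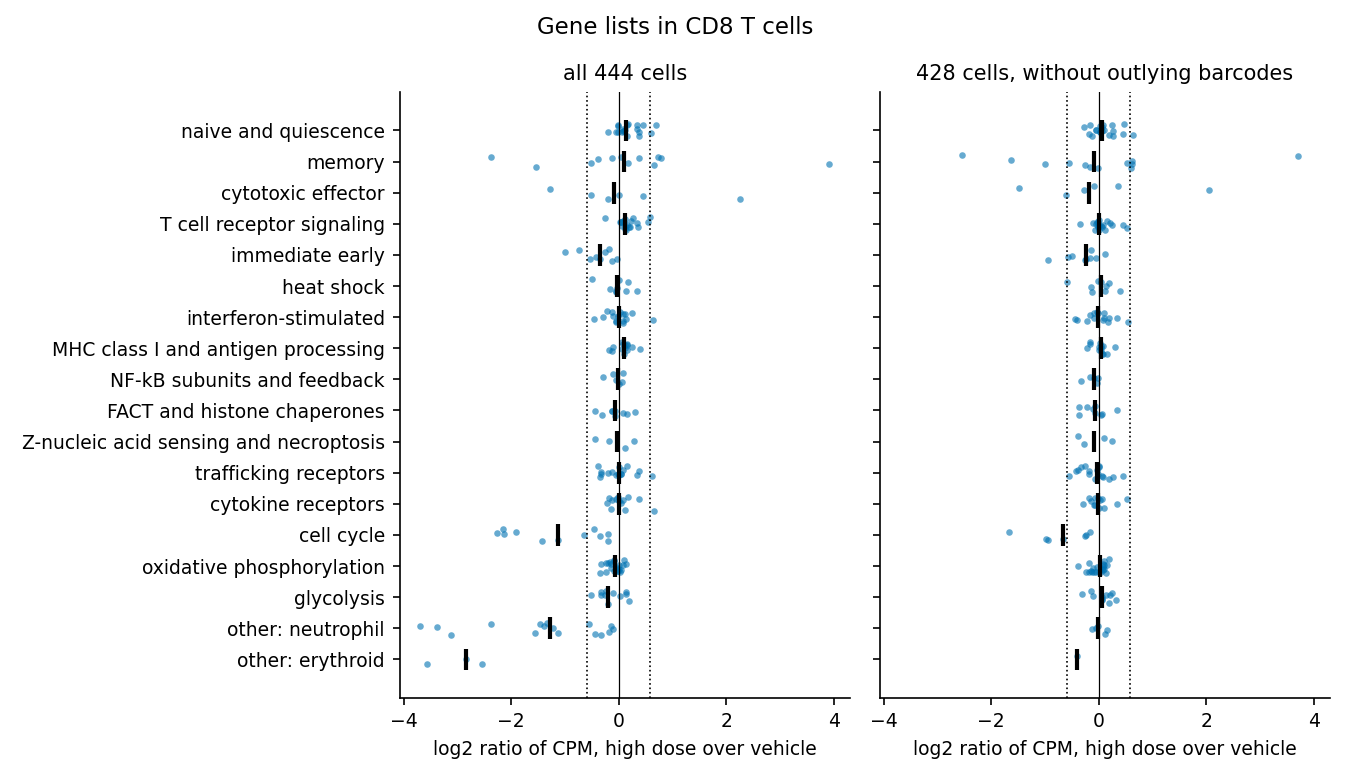
Each point is 1 gene with 100 UMIs or more, placed by its log2 ratio of CPM (high dose over vehicle) in the row of its list, with the median as a black line and 1.5-fold as dotted lines. The left panel has all vehicle and high dose cells and the right panel leaves out outlying barcodes, and the median of the neutrophil list is -1.28 on the left and -0.01 on the right, that of the cell cycle list -1.12 and -0.66.

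The study names 14 T cell genes, a list that it chose on these libraries and that is not independent evidence. It reported them as more highly expressed after CBL0137 in T cells among liver leukocytes. The values here are for CD8 T cells alone, in a library whose tissue is unsettled, so the 2 comparisons are not alike. Of the 14 genes, 10 were measured here, around a median of -0.09 at the high dose. Past 1.5-fold higher was 1 (Ifi27l2a), against 1.93% of all measured genes. Lcp1, an actin-bundling protein and the most abundant, had 326, 247 and 295 CPM. Eif6, a translation factor, had 96.7, 107 and 97.2 CPM, and Itgb1, an integrin chain, had 50.8, 44.3 and 46.4 CPM. The other 9 measured genes had ratios from -0.35 (Icam2, an adhesion molecule) to 0.06 (Baz1b, a chromatin protein).

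Several chosen effector and naive genes had other levels in CD8 T cells of the library labelled spleen. Ccl5 had 7053, 9227 and 9813 CPM there, against 826, 203 and 850.5 CPM in the CD8 T cells described so far. Pdcd1 had 207, 265 and 237 CPM against 3.28, 1.32 and 1.64, and Gzmb had 317, 561 and 819 CPM against 53.3, 5.29 and 17.5. Lef1 had 46.3, 23.4 and 7.70 CPM there, against 430.4, 460.0 and 477, and Dapl1 had 6, 0 and 1 UMIs. In Ccl5, Pdcd1, Gzmb and Lef1 the levels of the libraries did not overlap, but these genes were picked from their lists. How often levels did not overlap over all genes was not counted. The high dose ratio of Mki67 was 2.45 (1.65 to 3.38) there and 3.46 in CD4 T cells of the library labelled liver, against -2.14 in its CD8 T cells. With 30 vehicle cells in the library labelled spleen, these ratios rest on few cells.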

How the data were processed

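Single-cell RNA and hashtag counts of 2 libraries were used. The deposited files hold raw UMI counts per gene and barcode that the authors made with Cell Ranger (5.0.0 in the file header, 6.0.0 in the submitters' processing notes) on build mm10. The CD8 gate, the hashtag rule and the gene lists were chosen with earlier results of these data known. Summed UMIs of each group were scaled to CPM, and ratios carry exact conditional binomial 95% intervals, shares Clopper-Pearson intervals, and differences of shares limits from both intervals. With 1 pooled sample per group no test was run, and intervals cover counting error only. A gene was read as higher or lower past 1.5-fold, with at least 100 UMIs over both groups. Named were the gate and marker genes, list members past 1.5-fold and the most abundant of each list, the genes the study names, and the 12 higher and 12 lower genes whose interval bound lay farthest from 0 under the limits given above. Genes outside this rule (among them Lef1, Tcf7, Fos, Junb, Dusp1, Ly6c2, Bcl2 at the low dose, Prf1, Klrd1, Cd160, Ssrp1, Supt16 and Zbp1) were chosen from the lists with their values known. Cells were thinned to 1000 UMIs for shares, and B cells had at least 3 Cd79 UMIs and no Cd3 UMI. Gene positions came from GENCODE M21 for 32158 of 32285 identifiers. The ratio step was tested on simulated group counts, which lack the single barcodes that dominate some genes here. The thinning step was checked on vehicle cells of the gate for their most abundant gene. Alternatives used HTODemux (Seurat 5.3.0), Scrublet (scanpy 1.11.5), TMM (edgeR 4.0.16) and DESeq2 1.42.0 size factors. Leaving out outlying barcodes, and the top barcode of each gene, was chosen after seeing the data. Doublets were not removed otherwise. Some list genes are not reported here.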

Additional observations from a re-analysis of the deposited data

Results flagged for a closer look

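Among the measured genes that were named or past 1.5-fold, 8 went opposite ways in the CD8 T cells of the 2 libraries. In each of them the high dose and the vehicle differed by over 1.5-fold in both libraries. They had at least 100 UMIs over both groups in the library labelled liver and at least 50 in the library labelled spleen. Gzmb also went opposite ways but had fewer than 100 UMIs in the library labelled liver. The difference between the libraries was not tested, and further genes changed sign by less or on fewer UMIs. The log2 ratio in the library labelled spleen was 2.45 for Mki67, against -2.14 in the library labelled liver. It was 1.86 against -1.91 for Top2a, 1.30 against -3.26 for Pclaf, 1.21 against -3.36 for Hist1h1b, 0.67 against -2.26 for Rrm2 and 0.63 against -1.42 for Hmgb2, all genes of division or chromatin. Gzma, a granule protease, had 1.36 against -1.28, but 100 of its 110 vehicle UMIs in the library labelled liver lay in 1 barcode. Its ratio there was 1.45 without the top barcode of each group. With the stricter gate it was 4.80, from 1 vehicle and 39 high dose UMIs. The ratio of 2410006H16Rik was -0.68 against 0.66, or 0.55 without outlying barcodes.

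Barcodes of the CD8 gate that had no group were used in no comparison. Of these 36 barcodes 16 (44.4%) were outlying in their neutrophil or hemoglobin UMIs, against 7.73% of the vehicle cells, and their median of 9448 UMIs was above that of each group.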

How the results depend on the processing

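Other hashtag calls (HTODemux, or at least 50 UMIs and 10 times the next), limits on genes and mitochondrial UMIs, and removal of Scrublet doublets left between 662 and 685 cells, and the share differences stayed between 6.85 and 7.72 points at the high dose and between 1.98 and 2.23 at the low dose. The stricter gate left 212 cells, with differences of 1.51 and 0.679 points, and the library labelled spleen gave 196 cells, with 1.12 and 0.439 points. In the main setting 207 genes were past 1.5-fold at the high dose and 144 at the low dose. The stricter gate gave 24 and 34, and a minimum of 50 UMIs 608 and 460. A minimum of 300 UMIs gave 45 and 22, and no minimum 5959 and 5409. Fewer or more genes were compared in each case. CPM without the neutrophil, B cell and erythroid list genes gave 201 genes at the high dose, 60 higher and 141 lower, and 142 at the low dose. Removal of Scrublet doublets gave 183 and 154. Without outlying barcodes 127 genes were past 1.5-fold at the high dose. Among named genes past 1.5-fold with all cells, some high dose log2 ratios reversed. With the stricter gate these were Ifi27l2a (-0.084), S100a4 (2.32), Lgals1 (0.012), Hmgb2 (0.075), Cst3 (0.18), Ly6a (-0.28) and Gzma (4.80, from 1 vehicle and 39 high dose UMIs). The ratios also reversed in cells without a Ccl5 UMI for S100a4 (0.90), and without the top barcode for Gzma (1.45) and Ccl4 (-0.59). In the library labelled spleen they reversed for Tbl1x (-0.44), 2410006H16Rik (-0.68), Hist1h1b (1.21), Pclaf (1.30), Rrm2 (0.67), Birc5 (0.27), Mki67 (2.45), Top2a (1.86), Hist1h2ap (0.28), Crip1 (0.12), Hmgb2 (0.63), Igfbp4 (-0.64), Ly6a (-0.36), Gzma (1.36), Trp53inp1 (-1.05) and Stmn1 (0.38). Named genes under 1.5-fold or with fewer than 100 UMIs also changed sign there, among them Npm1 (-0.62), Plac8 (-0.87), Dok2 (0.85), Lcp1 (0.55) and Gzmb (1.37). Among others, Ramp1 (0.26), Cdk6 (0.23), Trbc1 (0.01), Itgb7 (0.01) and Lgals1 (-0.07) kept their direction there but fell under 1.5-fold. The cause was not tested. No paired analysis was possible because each group is 1 pooled sample and no result comes from a test, and for the same reason no replicate could be left out. Genes with few UMIs, such as Pdcd1, cannot be compared at this depth.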
